A study of Mus musculus with 4 samples.

Results

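Metallothioneins are small cysteine-rich proteins that hold zinc and copper ions. The account below covers 6 genes of this system in glomeruli, the capillary filters of the mouse kidney: the metallothioneins Mt1, Mt2 and Mt3, the zinc-sensing transcription factor Mtf1, the zinc exporter Slc30a1 (ZnT1) and the metal importer Slc39a14 (ZIP14). They were found by symbol among the 52636 genes of the deposited count matrices. The genes were chosen by their measured UMIs in young against aged libraries, so that their differences between ages, and how these vary between classes, are given as descriptions. Glomeruli were pulled from perfused kidneys with magnetic beads, dissociated with enzymes and profiled by droplet single-cell RNA-seq that reads the 3' end of each transcript. There were 2 libraries from young and 2 from aged untreated mice. The labels give the age only as young or aged, with no strain, sex or number of mice, and do not say whether the replicates are separate mice, so the spread between libraries may be technical.

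Zinc in the cytosol is kept low by exporters of the SLC30 family, raised by importers of the SLC39 family and buffered by metallothioneins. When free zinc increases, MTF-1, the product of Mtf1, binds metal response elements in the promoters of metallothionein genes and of Slc30a1 and raises their transcription. Metallothionein genes also respond to glucocorticoids, to cytokines that act through STAT3 and to oxidative stress, and in the kidney they are best known from tubule cells exposed to cadmium.

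The 3 metallothioneins lie in 1 cluster on mouse chromosome 8 (GRCm38, GENCODE annotation, plus strand), with Mt3 at chr8:94152607-94154146, Mt2 at chr8:94172664-94173568 and Mt1 at chr8:94179082-94180327. The gap between the end of Mt2 and the start of Mt1 is 5514 bases. Mtf1 lies at chr4:124802104-124849800, Slc30a1 at chr1:191906767-191913247 and Slc39a14 at chr14:70303469-70351425. RefSeq promoter windows (GRCm38.p6, 250 bases before and 50 after the annotated start) were at hand for 5 of the 6 genes. Those of the 3 genes that MTF-1 is known to bind are printed to show where in the window such matches lie, with every match to the core of the metal response element, TGCACNC or TGCGCNC on either strand, in capitals.
Mt1, chr8:94178839-94179138, plus strand: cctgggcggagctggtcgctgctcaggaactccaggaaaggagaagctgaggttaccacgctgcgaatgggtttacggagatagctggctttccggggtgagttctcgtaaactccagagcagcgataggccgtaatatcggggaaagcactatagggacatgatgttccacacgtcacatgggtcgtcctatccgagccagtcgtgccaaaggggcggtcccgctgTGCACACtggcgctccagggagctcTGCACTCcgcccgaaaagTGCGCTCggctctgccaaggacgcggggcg
Mt2, chr8:94172368-94172667, plus strand: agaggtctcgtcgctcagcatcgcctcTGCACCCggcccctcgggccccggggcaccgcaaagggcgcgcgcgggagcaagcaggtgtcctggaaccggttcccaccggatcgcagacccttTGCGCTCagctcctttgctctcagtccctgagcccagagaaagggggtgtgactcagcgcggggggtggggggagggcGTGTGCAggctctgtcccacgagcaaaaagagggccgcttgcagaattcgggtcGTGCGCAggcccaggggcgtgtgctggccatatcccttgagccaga
Slc30a1, chr1:191906531-191906830, plus strand: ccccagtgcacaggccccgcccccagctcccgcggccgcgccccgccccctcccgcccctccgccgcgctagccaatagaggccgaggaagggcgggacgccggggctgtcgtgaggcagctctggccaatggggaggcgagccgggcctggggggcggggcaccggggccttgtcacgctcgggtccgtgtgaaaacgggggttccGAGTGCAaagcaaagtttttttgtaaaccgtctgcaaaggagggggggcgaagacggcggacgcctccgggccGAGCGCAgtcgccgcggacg

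The Mt2 window held 4 core matches, the Mt1 window 3 and the Slc30a1 window 2. Of 32851 promoter windows of the same length, 25.7% held at least 1 match, 7.11% at least 2, 1.97% at least 3 and 0.517% at least 4. The Mt3 window held 1 match and the Mtf1 window none. The core of the antioxidant response element, TGACNNNGC on either strand, was found once in the Mt2 window and once in that of Slc30a1, against 12.4% of all windows. Other annotated Mt1 transcripts start 73 and 103 bases after the end of the printed window, so the sequence next to those starts is not shown. A match is a run of letters and not a shown binding site.

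Cells were sorted into classes by clustering and by fixed marker genes, and UMIs were summed per class and library. Levels are given as UMIs of the gene in a sum on the counts-per-million scale (CPM), by the total UMIs of that sum. The young libraries kept 5035 and 6976 cells and the aged ones 9187 and 6802, with a median of 1258 to 3730 UMIs per cell and 18457791 to 42046542 UMIs per library. Young replicate 2 stood apart, since 59.8% of its kept cells fell into clusters that carried markers of several classes, against 3.77% in young replicate 1 and 0.805% and 1.68% in the aged libraries, and these cells entered no class. Any 2 libraries shared 9 to 31 cell barcodes. Podocyte, endothelial, mesangial and parietal epithelial classes were all found, and every defining marker of each had UMIs in every library. The 4 glomerular classes with at least 20 cells in every library held 608 to 1770 podocytes, 1439 to 6033 endothelial, 178 to 691 mesangial and 31 to 77 parietal epithelial cells per library. The macrophage class had 3 and 12 young against 541 and 474 aged cells.

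Mt1 levels were higher in the aged libraries in every glomerular class. Podocytes, the foot-process cells that wrap the capillaries, carried 971 and 942 Mt1 CPM when young and 3853 and 4142 when aged. The aged values were about 4 times the young ones and the groups did not overlap. On the log2 scale of the edgeR fit the difference was 2.12 (SE 0.15). Mesangial cells, the contractile cells between the capillaries, carried 1765 and 1326 CPM in young and 6736 and 5193 in aged libraries, a log2 difference of 2.05 (SE 0.22). Glomerular endothelial cells stood lower, at 488 and 405 in young and 1269 and 1027 in aged libraries, with a log2 difference of 1.48 (SE 0.18). In these 3 classes every aged library was above every young one.

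Mt2 levels were likewise higher in the aged libraries. The podocyte sums held 179 and 197 Mt2 CPM in young and 767 and 885 in aged libraries, a log2 difference of 2.20 (SE 0.14). Mesangial sums held 215 and 179 in young and 893 and 640 in aged libraries (log2 difference 2.06, SE 0.20), and endothelial sums 92.9 and 71.0 in young and 240 and 202 in aged libraries (log2 difference 1.54, SE 0.17). The groups did not overlap in any of the 3 classes. Reads of the opposite-strand gene Gm45774, which overlaps Mt2, came to 6 to 26 UMIs in all kept cells of a library.

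**Figure D1:**
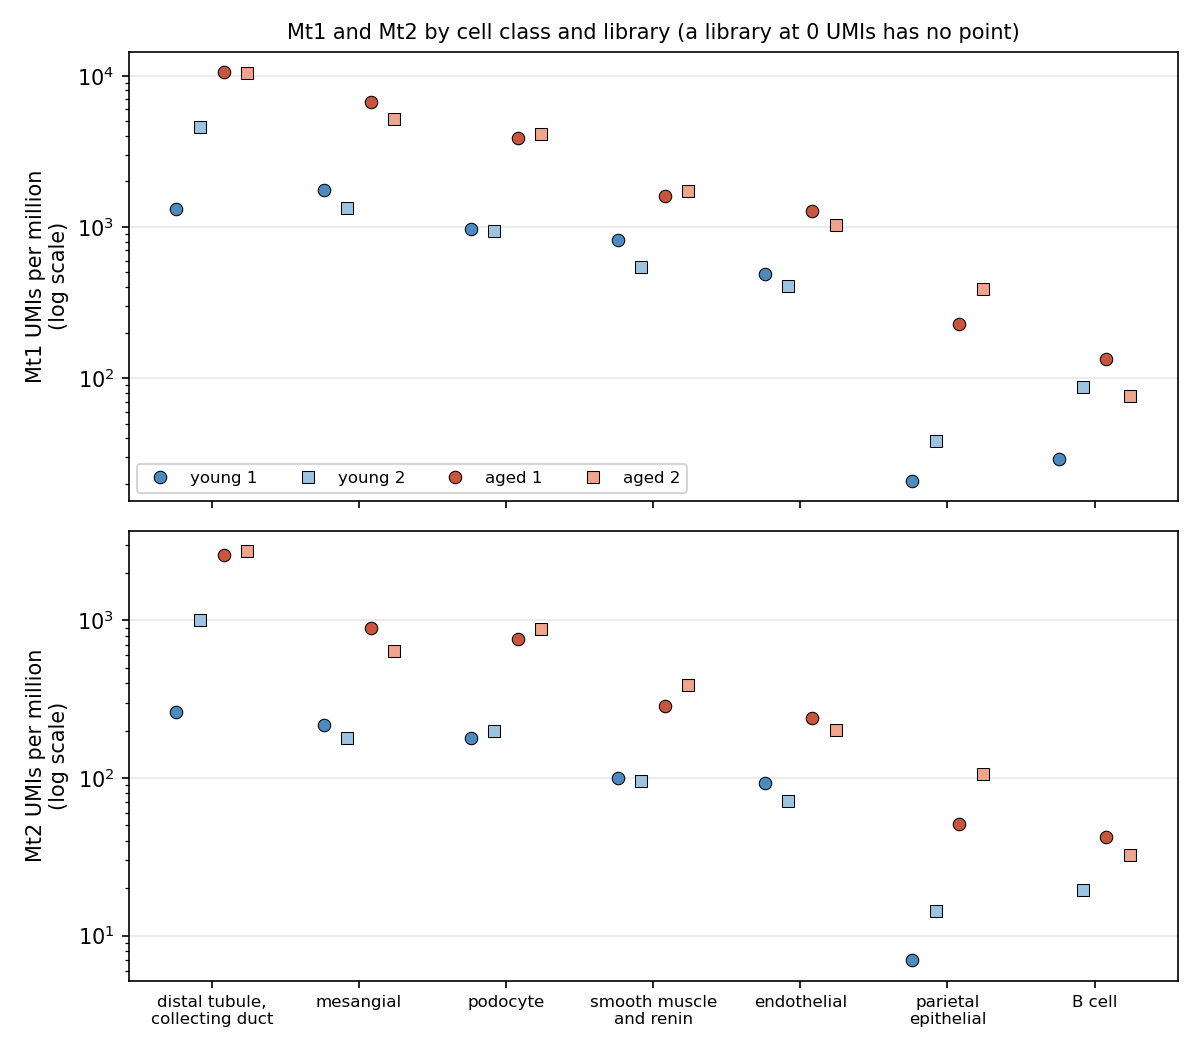
Mt1 (upper) and Mt2 (lower) CPM on a log scale, by cell class, with 1 point per library (blue young, red aged). In podocyte, mesangial and endothelial cells both aged points lie above both young points, from 405 to 1765 in young and 1027 to 6736 in aged libraries for Mt1, whereas the B cell points for Mt1 overlap. For Mt2 the B cell values do not overlap, at 0 and 19.4 in young and 42.2 and 32.5 in aged libraries, from at most 6 UMIs each.

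Parietal epithelial cells, the outer wall of Bowman's capsule, had few metallothionein UMIs. Young libraries gave 3 and 8 Mt1 UMIs and aged ones 67 and 184, which is 21.0, 38.4, 228 and 391 CPM. B cells, a class in which the gene should be low and which takes up free RNA in droplets, gave 29.0, 87.2, 134 and 75.9 CPM from 4, 9, 19 and 7 UMIs. Their pooled Mt1 UMIs gave an aged to young ratio of 2.06 (exact 95% interval 1.02 to 4.36, for counting error only). The young parietal values lay within or under the range of the B cells and the aged ones above it. T and NK cells gave 0 and 77.3 CPM in young and 98.3 and 241 in aged libraries, from 0, 8, 12 and 47 UMIs. Their value in aged replicate 2 lay above the parietal value in aged replicate 1. Podocyte markers in the parietal sums stood at 6.51% and 11.4% of their own-class level in young and 5.62% and 8.18% in aged libraries, and smooth muscle and renin markers at 7.18% and 8.47% against 15.1% and 15.3%. Of the 8 smooth muscle and renin markers, 4 or 5 had 0 UMIs in each parietal sum. Tagln is on that marker list and was among the leading genes of the parietal cluster. Podocytes and smooth muscle and renin cells carried more Mt1 than parietal cells, and their part in the parietal values was not tested. The aged to young ratio of pooled Mt1 UMIs in parietal cells was 10.5 (exact 95% interval 5.76 to 21.3, for counting error only), with a fitted log2 difference of 3.35 (SE 0.41). When the members and list genes were left out of the clustering, the young parietal sums held 57.0 and 102 CPM and the difference was 1.97. For Mt2 the class gave 1, 3, 15 and 50 UMIs and a ratio of 7.47 (exact 95% interval 2.78 to 28.2, for counting error only).

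Outside the tuft, cells of the distal tubule and collecting duct had the highest Mt1 level, at 1323 and 4603 CPM in young and 10611 and 10463 in aged libraries, from 9, 59, 89 and 18 cells. The 2 young values differed from each other by more than 3 times. Smooth muscle and renin cells, from 36 to 71 cells a library, held 817 and 541 in young and 1609.9 and 1717 in aged libraries. Macrophages held 641 and 534 in young, from 5 and 24 UMIs, and 985 and 745 in aged libraries. Among these classes the order in the aged libraries was distal tubule, mesangial, podocyte, smooth muscle and renin, endothelial, macrophage and parietal epithelial cells, and no 2 neighbours overlapped. In the young libraries the podocyte level (942 to 971) lay above those of smooth muscle and renin (541 to 817) and endothelial cells (405 to 488), and distal tubule and mesangial cells overlapped. Distal tubule markers came to at most 0.13% of their own-class level in the podocyte, endothelial and mesangial sums and macrophage markers to at most 0.11% in the podocyte and endothelial and 1.93% to 3.12% in the mesangial sums. Endothelial markers in the mesangial sums stood at 10.5% and 10.5% in young and 12.4% and 14.2% in aged libraries, and their part in the mesangial values was not tested.

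Thinning each cell to 1000 UMIs, which makes libraries of unequal depth comparable, showed how the difference was spread over cells. Cells with fewer UMIs were left out, unevenly between libraries. Endothelial cells went from 1439 to 1248 in young replicate 2 and from 4306 to 4287 in aged replicate 2. Among podocytes, 39.1% and 38.9% of young cells and 82.8% and 83.2% of aged cells had at least 1 Mt1 UMI. The share with at least 5 Mt1 UMIs was 3.85% and 3.63% in young and 29.8% and 31.6% in aged libraries. Mesangial cells with a Mt1 UMI were already frequent in young libraries, at 72.0% and 63.9%, against 92.4% and 91.0% in aged ones, but those with at least 5 UMIs made up 10.8% and 4.43% of young and 62.6% and 49.0% of aged cells. Endothelial cells with a Mt1 UMI made up 29.9% and 25.7% in young and 50.6% and 44.1% in aged libraries. B cells served as the background, with 3.09%, 6.90%, 11.7% and 8.0% in the same order, at median depths of 1200 to 1727 UMIs before thinning. Among T and NK cells of the aged libraries, 5.45% and 23.4% had Mt1 without Mt2, and 1.82% and 3.90% had both. Without thinning the podocyte shares were 63.7% and 69.7% in young and 95.9% in both aged libraries.

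**Figure D2:**
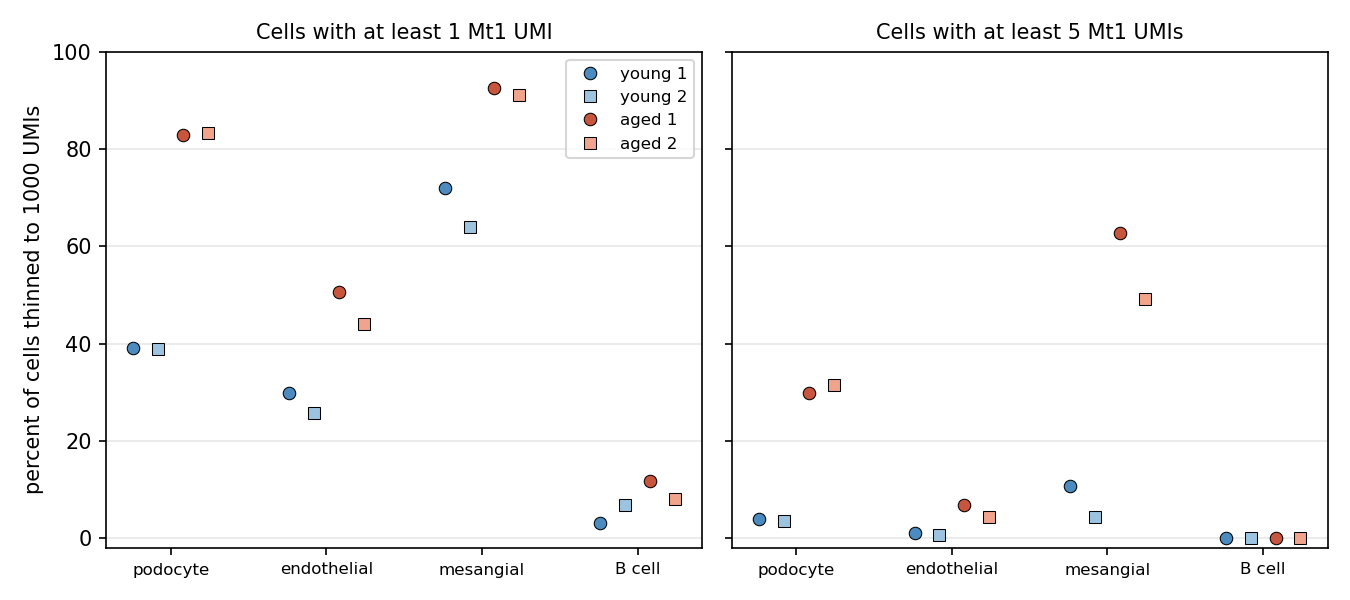
Percent of cells with at least 1 (left) and at least 5 (right) Mt1 UMIs after thinning each cell to 1000 UMIs, by class, with 1 point per library. Cells with fewer than 1000 UMIs are left out. The podocyte points lie near 39% in young and 83% in aged libraries at 1 UMI and the B cell points at or under 11.7%.

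The balance between the 2 genes overlapped between ages in each large class. Mt2 made up 15.5% and 17.3% of the Mt1 and Mt2 UMIs of podocytes in young and 16.6% and 17.6% in aged libraries, so that the groups overlapped. Endothelial cells stood at 16% and 14.9% in young and 15.9% and 16.5% in aged libraries, and mesangial cells at 10.9% and 11.9% against 11.7% and 11.0%. Between classes the share was 16.8% ± 0.92 for podocytes, 15.8% ± 0.66 for endothelial and 11.4% ± 0.51 for mesangial cells (SD over 4 libraries). The podocyte share exceeded the mesangial one by 5.40 points and the endothelial share exceeded it by 4.45 points, each in 4 of 4 libraries (exact permutation p = 0.125 each, two-sided, the smallest that 4 pairs allow, adjusted p = 0.188 over 3 pairs). Mt2 is 3'-tagged like Mt1, and the share is read between classes and not as the abundance of one gene against the other.

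**Figure D3:**
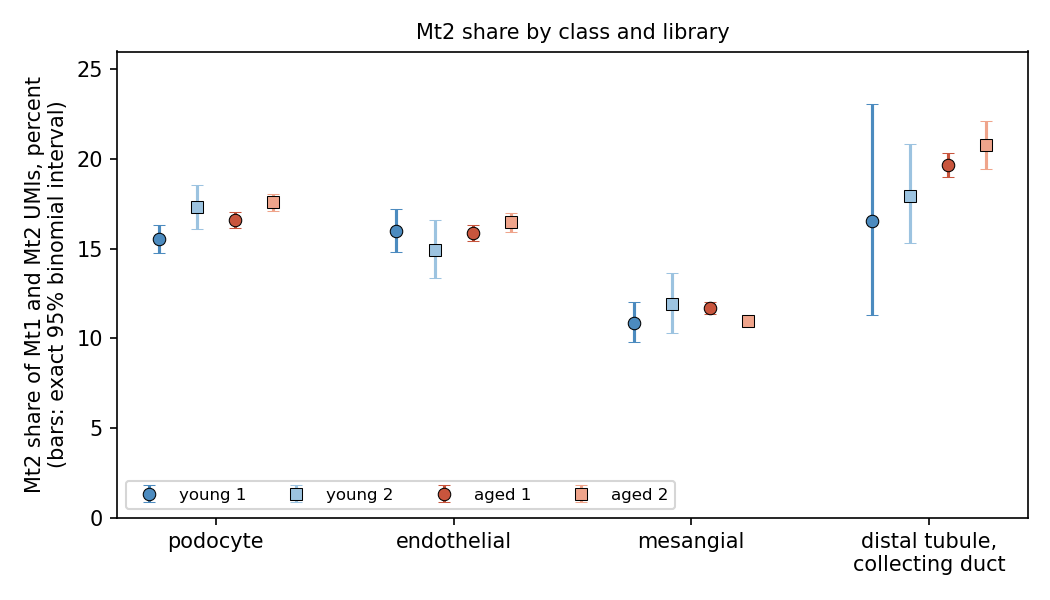
Mt2 as a percent of the summed Mt1 and Mt2 UMIs, by class, with 1 point per library and exact 95% binomial intervals as bars. Mesangial points lie between 10.9% and 11.9%, under all podocyte (15.5% to 17.6%) and endothelial (14.9% to 16.5%) points. Young and aged points interleave in each of these classes. Distal tubule and collecting duct points do not, at 16.6% and 17.9% in young and 19.7% and 20.8% in aged libraries, from 9, 59, 89 and 18 cells.

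Podocytes with both transcripts were more frequent in the aged libraries. After thinning, 9.68% and 9.84% of young and 37.0% and 43.4% of aged podocytes had UMIs of both genes, while those with Mt2 alone were 3.11% and 3.97% in young and 3.32% and 2.13% in aged libraries. Within a library, the correlation of log2 Mt1 and Mt2 over single podocytes was 0.386 and 0.331 in young and 0.417 and 0.460 in aged libraries. These are correlations across cells of 1 library that share its depth, and are given as descriptions.

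Mt3, best known as the metallothionein of neurons, was nearly absent. It had 0 UMIs in both young libraries, which allows up to 0.152 and 0.185 CPM (3 counts, for counting error only), and 6 and 3 UMIs in all kept cells of the aged ones, 4 of them in distal tubule and collecting duct cells. None were counted in podocyte, mesangial or parietal epithelial sums, and it passed the filter on low counts in no class. Mt4, the remaining gene of the cluster, had 0 UMIs in every library.

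Mtf1, the zinc sensor itself, had overlapping levels at both ages in podocytes and endothelial cells. Podocytes held 17.7 and 20.1 CPM in young and 18.4 and 19.4 in aged libraries, with a log2 difference of 0.07 (SE 0.19). Endothelial cells held 24.8 and 25.3 in young and 24.1 and 25.5 in aged libraries, again with overlapping groups. Mesangial cells had the highest level, at 32.7 and 46.2 in young and 68.4 and 53.2 in aged libraries. There the groups did not overlap, and the log2 difference was 0.76 (SE 0.22). Both aged values lay above both young ones in 26.5% of all genes tested in mesangial cells, counted on CPM scaled between libraries by TMM.

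Slc30a1, which moves zinc out of the cell across the plasma membrane, was highest among glomerular classes in endothelial cells. They held 46.5 and 59.3 CPM in young and 55.6 and 50 in aged libraries, so that the groups overlapped. Podocytes held 17.2 and 27.7 against 22.5 and 23.8, with a log2 difference of 0.17 (SE 0.20), and mesangial cells 11.3 and 12.1 against 12.6 and 17.4, with a log2 difference of 0.46 (SE 0.31). The mesangial groups did not overlap, from 18 and 12 UMIs in young and 61 and 97 in aged libraries. Both aged values were above both young ones in 26.5% of all genes tested in that class, counted after TMM scaling. All 4 endothelial values lay above all podocyte values, and these above all but 1 of the mesangial values. The class with the least exporter RNA, mesangial cells, was the one with the most Mt1 and Mtf1 RNA among the 3. Aged macrophages, with 83.3 and 111 CPM, were above all glomerular classes. Parietal epithelial sums gave only 4 to 17 UMIs.

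Slc39a14, an importer of zinc, iron and manganese, was scarce. It stood at 3.21 and 4.87 CPM in young and 4.42 and 2.42 in aged podocytes and at 4.24 and 5.46 against 4.33 and 4.84 in endothelial cells, and the groups overlapped in both. The mesangial sums held 2 and 3 UMIs in young and 9 and 16 in aged libraries, too few to be tested. Smooth muscle and renin cells held 13.5 and 26.2 in young and 9.50 and 19.7 in aged libraries, from 2 to 6 UMIs each, the highest of the named classes in 3 of 4 libraries. In aged replicate 1 the distal tubule (14.3) and monocyte and dendritic values (10.3) were higher.

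**Figure D4:**
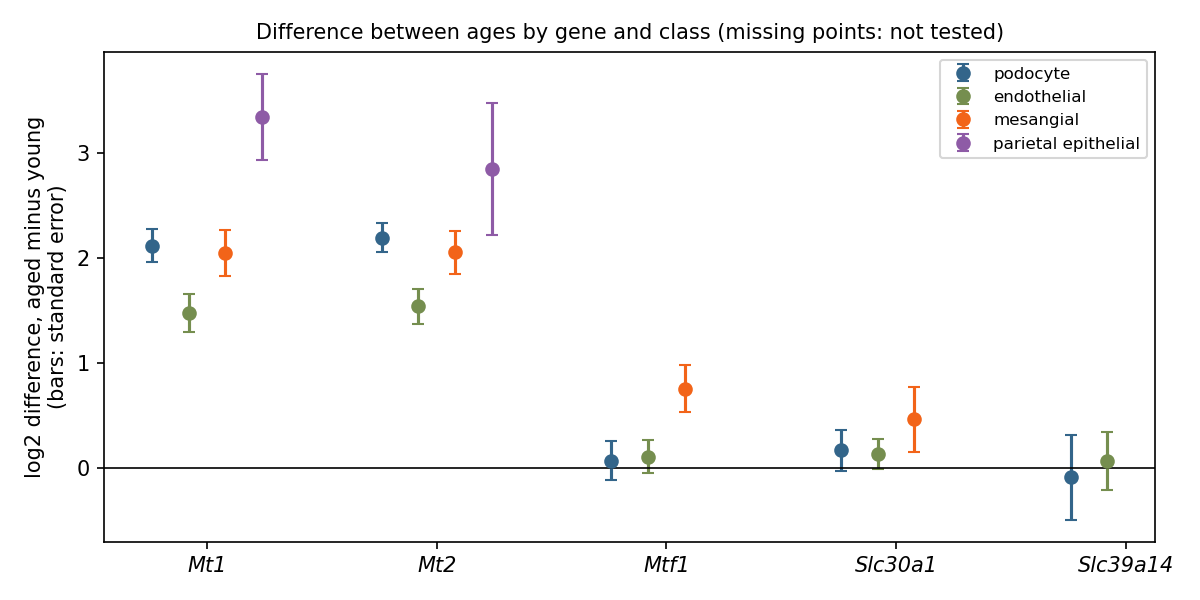
Log2 difference between aged and young libraries for 5 of the 6 genes in each glomerular class, with standard errors as bars and a line at 0. Mt1 and Mt2 lie between 1.48 and 3.35 in all classes, while the Mtf1, Slc30a1 and Slc39a14 points lie between -0.09 and 0.76.

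Of the 6 genes, 5 passed the low-count filter in podocytes and endothelial cells, 4 in mesangial and 2 in parietal sums, and in each class 2 of them, Mt1 and Mt2, were among the genes called at an adjusted p under 0.05, both higher in aged libraries. Across all genes the test (edgeR quasi-likelihood, Benjamini-Hochberg) called 3.88%, 3.94%, 4.0% and 1.43% higher and 1.96%, 2.19%, 2.11% and 1.10% lower in aged podocyte, endothelial, mesangial and parietal epithelial sums. Since the genes were chosen on this contrast, nothing is read from their count. Non-overlap alone is common in 2 against 2 libraries: both aged values were above both young ones in 23.6%, 24.3%, 26.5% and 23.7% of genes. These shares were counted after TMM scaling, whereas the levels of the 6 genes are plain CPM. The split of higher to lower calls depended on the scaling. It was 423 to 214 for podocytes, 519 to 288 for endothelial and 428 to 226 for mesangial cells, and with library size alone it was 341 to 271, 395 to 536 and 385 to 428, where the median gene shifted by -0.13 in endothelial and -0.11 in mesangial cells.

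The log2 difference of Mt1 was larger in parietal epithelial than in endothelial cells by 1.97 (SE 0.49) in 1 fit over the 4 classes. That value was 0.55 when the members and list genes were left out of the clustering, 1.26 without aged replicate 2 and up to 2.74 without young replicate 2. The endothelial minus podocyte value was -0.61 (SE 0.20) for Mt1 and -0.64 (SE 0.19) for Mt2, and the mesangial minus podocyte value for Mt1 was -0.04. These are descriptions with no test, since the genes were chosen on the same sums.

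Within the endothelial class, Mt1 is described for some of its 5 clusters, which were chosen after their values were seen. The members were not held out of the clustering that formed them. Cells led by Sele and Selp, adhesion molecules of activated endothelium, held 809.6 and 695 CPM in young and 1886 and 1596 in aged libraries. Those led by Tspan8 and Fbln2 held 75.7 and 88.2 against 328 and 261, so that the groups did not overlap in either. A cluster led by Calca, which encodes the CGRP peptide, held 131 and 159 in young and 189 and 90.7 in aged libraries, and there the groups overlapped. The overlap depended on the clustering: where members and list genes were left out, the cluster with Calca among its leading genes, mixed with cycling cells, held 151 and 172 in young and 522 and 506 in aged libraries. In podocytes, the larger cluster held 1107 and 1058 in young and 4314 and 4606 in aged libraries and the smaller one 681 and 544 against 1946 and 2231.

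The wider set of zinc transporters was read from lists chosen with earlier results of these data known. Of 9 further SLC30 exporters, 6 were tested in podocytes and 1 was called, Slc30a2 (ZnT2, a vesicular exporter). It had 49 and 17 UMIs in young and 87 and 59 in aged podocytes, or 6.30 and 5.17 against 15.4 and 11.9 CPM (a log2 fold change of 1.26, SE 0.25, edgeR adjusted p = 0.00172). The call was lost without aged replicate 1, with DESeq2 and with mixed cells kept. Of 13 further SLC39 importers, 7 were tested in podocytes and 1 was called, Slc39a10 (ZIP10, a plasma membrane importer). It rose from 38.6 and 48.7 to 103 and 108 CPM (a log2 fold change of 1.36, SE 0.14, edgeR adjusted p = 3.2e-07), and kept its call in 12 of 13 alternatives, the exception being the one that kept mixed cells (adjusted p = 0.0634). Endothelial cells held 68.8 and 79.9 Slc39a10 CPM in young and 68.2 and 64.1 in aged libraries, and the gene was not called there. Mesangial values were 15.7 and 28.1 against 24.9 and 22.0. In an age by class interaction over 14056 genes with library as a block, of which 8.05% were called, the podocyte difference exceeded the endothelial one by 1.36 (edgeR, adjusted p = 1.3e-07 over genes and pairs of classes) and the mesangial one by 1.06 (adjusted p = 0.0279). With mixed cells kept both calls were lost (adjusted p = 0.244 and 0.172), and the mesangial one also without young replicate 1 (0.0835), young replicate 2 (0.536) or aged replicate 2 (0.0853). No exporter or importer on the lists was called in endothelial (5 and 9 tested), mesangial (5 and 7) or parietal epithelial cells (1 and 2). Over all genes, 3.88% were called higher and 1.96% lower in podocytes, and 3.94% and 2.19% in endothelial cells. The shares were 4.0% and 2.11% in mesangial and 1.43% and 1.10% in parietal sums. Lists this short can give no call at such shares, so nothing is read from the absence. The list medians in podocytes were 0.17 for exporters and -0.12 for importers, beside 0.01 over all genes tested.

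**Figure D5:**
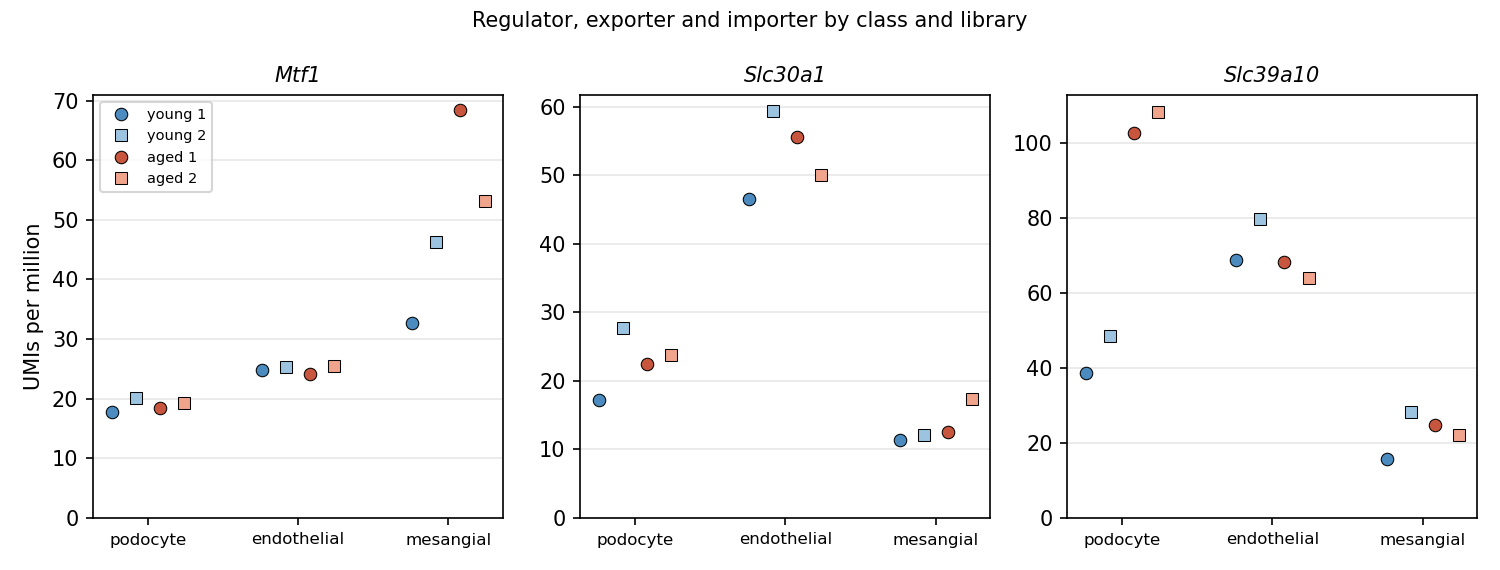
CPM of Mtf1, Slc30a1 and Slc39a10 in the 3 large glomerular classes, with 1 point per library. Slc39a10 in podocytes lies at 38.6 and 48.7 in young and 103 and 108 in aged libraries. The Slc30a1 points of the ages overlap in podocytes and endothelial cells and not in mesangial cells.

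Among 6 other genes linked to MTF-1, 5 were tested in endothelial and in mesangial cells and 4 in each epithelial class, podocytes and parietal cells. Csrp1, a LIM-domain protein of the actin cytoskeleton, rose in podocytes (log2 fold change 1.21, SE 0.14, edgeR adjusted p = 7.8e-07) and in parietal epithelial cells (1.11, SE 0.20, adjusted p = 0.00627), the podocyte call being lost with mixed cells kept. Pgf, a ligand of the VEGF receptor FLT1, fell in mesangial cells from 66.1 and 41.2 to 19.4 and 21.5 CPM (a log2 fold change of -1.33, SE 0.23, edgeR adjusted p = 0.00857), a call lost without young replicate 1 (adjusted p = 0.206) and with mixed cells kept. None was called in endothelial cells. In podocyte, endothelial, mesangial and parietal epithelial sums, 3.88%, 3.94%, 4.0% and 1.43% of all genes were called higher. In the same order, 1.96%, 2.19%, 2.11% and 1.10% were called lower. The list medians were 0.04, 0.27, 0.16 and -0.28 in the order podocyte, endothelial, mesangial and parietal epithelial.

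Copper and iron genes were read from lists as well. Over all genes, 3.88%, 3.94%, 4.0% and 1.43% were called higher in podocyte, endothelial, mesangial and parietal epithelial sums. The shares called lower were 1.96%, 2.19%, 2.11% and 1.10%. Of 10 copper genes 8 or 9 were tested per class and 1 was called, the ferroxidase Cp in mesangial cells, at 191 and 234 CPM in young and 421 and 529 in aged libraries (log2 fold change 1.26, SE 0.17, edgeR adjusted p = 0.00193). That call was lost without either young library (highest adjusted p = 0.122). Of 8 iron genes, 3 to 7 were tested per class and 1 was called, transferrin (Trf) in mesangial cells (log2 fold change 0.81, SE 0.21, edgeR adjusted p = 0.045), also lost without either young library and with DESeq2.

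Genes induced by glucocorticoids, through STAT3 or by oxidative stress were read from 3 further lists, beside 3.88%, 3.94%, 4.0% and 1.43% of all genes called higher in podocyte, endothelial, mesangial and parietal epithelial sums and 1.96% called lower in podocytes. Of glucocorticoid-induced genes, 9 were tested in podocytes, of which 3 rose and 2 fell, 9 in endothelial cells with 3 higher, 9 in mesangial cells with 3 higher and 7 in parietal epithelial cells with 2 higher. Zbtb16, a zinc-finger repressor, went from 5.97 and 5.70 to 77.4 and 60.2 CPM in endothelial cells (log2 fold change 3.67, SE 0.20, edgeR adjusted p = 5.1e-09). Dusp1, a MAP kinase phosphatase, fell in podocytes (-0.80, SE 0.14, adjusted p = 0.000378) and rose in endothelial cells (1.17, SE 0.17, adjusted p = 0.000367). The endothelial Dusp1 call was lost without either young library and without the filter on low counts, and the podocyte one without aged replicate 1 and with mixed cells kept.

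STAT3 and acute phase genes were called higher in 6 of 9 tested podocyte, 4 of 10 endothelial, 1 of 8 mesangial and 1 of 6 parietal epithelial sums, against the same shares over all genes, and none was lower. Cebpd, a C/EBP transcription factor, rose in podocytes from 625 and 749 to 2349 and 2409 CPM (a log2 fold change of 1.85, SE 0.15, edgeR adjusted p = 1.8e-09). Cebpb was the gene called in mesangial and also in parietal sums. With mixed cells kept, Osmr and Bcl3 in podocytes turned to -0.13 and -0.02. Podocyte Osmr rested on 1 and 4 UMIs in young and 32 and 21 in aged libraries. The podocyte call of Il6ra was lost with library size alone, with DESeq2, without the filter on low counts and in further alternatives. Of NRF2 antioxidant genes, 2 rose in each of the 3 large classes, of 7 tested in podocytes, 9 in endothelial and 7 in mesangial sums, and 0 of 6 in parietal ones. Hmox1, heme oxygenase 1, rose in endothelial cells from 24.0 and 28.8 to 59.7 and 72.3 CPM (a log2 fold change of 1.46, SE 0.16, edgeR adjusted p = 1.2e-05) and in mesangial cells from 86.3 and 77.4 to 201 and 236 (1.51, SE 0.16, adjusted p = 0.000425), the endothelial call being lost without either young library and without the filter on low counts. Genes that dissociation itself induces were called higher in 5 and lower in 0 of 12 for podocytes, 1 and 0 for endothelial, 0 and 3 for mesangial and 0 and 5 for parietal sums. Of all genes tested, 3.88%, 3.94%, 4.0% and 1.43% were called higher in these sums, in that order. Those called lower were 1.96%, 2.19%, 2.11% and 1.10%. The part of dissociation-induced genes in the metallothionein values was not tested.

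By Pearson correlation of log2 CPM over the 16 class by library sums, among 14056 genes, the genes most like Mt1 included Mt2 (r = 0.991), Lamp1 (0.930), Tonsl (0.929) and Tbc1d1 (0.914). For Mt2 they included Mt1, Lamp1 (0.929), Tonsl (0.920) and Ctsa (0.909). The sums of a class or library share handling and depth, and the values are descriptions.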

How the data were processed

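Each of the 4 libraries came as a deposited matrix of UMI counts per gene and cell barcode, made by the authors with Cell Ranger on GRCm38. The file headers and the submitters' processing notes name version 6.0.1 and the labels' extract protocol version 3.1.0, and which one made the counts was not settled. Barcodes with at least 500 genes and at most 20% mitochondrial UMIs were kept, and the top doublet scores were removed at 0.8% per 1000 barcodes, since the caller's own cutoff marked only 0.449% (Scrublet in scanpy 1.11.5). Cells were clustered (2000 variable genes, 30 components, 15 neighbours, Leiden resolution 1, leidenalg 0.10.2). A cluster was named where its median marker level reached 0.35 of the best, on at least 3 markers, and mixed clusters and cells were set aside. These thresholds were set after the markers were seen in the data, and a difference from the study may come from rebuilt names. UMIs were summed per class and library and tested over all genes with edgeR 4.0.16 (R 4.3.3; TMM, filterByExpr, quasi-likelihood, Benjamini-Hochberg, 0.05). The scripts were tested on simulated data. DESeq2 1.42.0, other scalings and filters, left-out libraries and other cell sets were alternatives. The members and gene lists were chosen with earlier results of these data known. The 6 members were always named, list genes where they passed the test in a class, and for Mt1 and Mt2 the 5 genes most like them, of which 1 is not reported here. A UMI count limits precision, and the intervals and floors cover counting error only.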

Additional observations from a re-analysis of the deposited data

Results flagged for a closer look

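The age effect on Slc39a10, the zinc importer ZIP10, differed between the 4 glomerular classes (age by class interaction, edgeR adjusted p = 3.1e-07). Podocytes held 38.6 and 48.7 CPM in young and 103 and 108 in aged libraries. Endothelial cells held 68.8 and 79.9 against 68.2 and 64.1, and the gene was not called there. On the log2 scale of the fit the endothelial minus podocyte value was -1.36 (SE 0.17). The interaction passed the threshold in 10 of 11 alternatives, and with mixed cells kept its adjusted p was 0.192. The gene was on a list chosen with earlier results of these data known.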

How the results depend on the processing

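The Mt1 and Mt2 differences stayed positive in all 102 alternatives run, from 1.31 to 3.92 on the log2 scale, with no change of sign in any class. Those of Mtf1, Slc30a1 and Slc39a14 ran from -0.59 to 0.99 over 104 alternatives. With doublets kept, no parietal epithelial class was formed and neither its test nor the interaction was run. Of 667 alternatives of the called list genes, 557 kept call and direction, 108 lost the call and 2 changed sign, both in podocytes with mixed cells kept (Osmr -0.13, Bcl3 -0.024). DESeq2 gave 269 calls for podocytes, 497 for endothelial, 407 for mesangial and 43 for parietal epithelial sums, against 637, 807, 654 and 115, and 691 against 1131 for the interaction. Without the filter on low counts the number was 5 in endothelial cells (2306 at an unadjusted p under 0.05), 1298 in mesangial and 253 in parietal epithelial cells. Clustering without members and list genes gave 200 in parietal epithelial cells. With mixed cells kept, 9 genes were called in podocytes and 6 for the interaction. Leaving out each library gave 302 to 1170 calls for podocytes, 11 to 769 for endothelial, 56 to 1898 for mesangial and 92 to 186 for parietal sums and 384 to 1533 for the interaction. In endothelial cells the low counts came without young replicate 1 (11) or young replicate 2 (26), in mesangial cells likewise (56 and 87), and in podocytes without aged replicate 1 (333) or aged replicate 2 (302). A replicate block gave 882, 1165, 1157 and 294 calls in podocyte, endothelial, mesangial and parietal epithelial cells. Deviations of libraries with the same replicate number correlated at 0.01, 0.09, 0.03 and 0.003, so the numbers were not taken as a pairing. Causes of these changes were not tested. Depth limits Mt3, Slc39a14 and all members in parietal epithelial cells, where single library sums hold as few as 1 UMI. Thinning to 500 UMIs or not at all moved the share of cells with a UMI past its interval in 53 of 64 cases, the Mt2 share stayed within its interval in 28 of 28, and a mean over cells moved 8 of 32 levels by more than their SD.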

Other observations

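Mt1 was also read in cells outside every class. The clusters with markers of several classes held 1132 and 1043 Mt1 CPM in young and 6377 and 4303 in aged libraries. The ages are not compared there over like cells, since the mix of clusters differed. A mesangial-like cluster led by Slc12a1 had 3 and 3 young against 47 and 90 aged cells. One nearest to podocytes had 27 and 2730 young against 13 and 12 aged cells. A further cluster without a name, with Chil3, Fn1 and the monocyte receptor Ccr2 among its leading genes, held 43.8 and 107 Mt1 CPM in young and 759.7 and 448 in aged libraries, while its Mt2 level was 0 and 4.0 in young and 12.9 and 18.0 in aged libraries. In aged macrophages Mt2 made up 3.39% and 6.07% of the Mt1 and Mt2 UMIs. These are values with no test.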
